A study of Caenorhabditis elegans with 36 samples.

Results

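Wild-type *C. elegans* whose libraries carry the label 25 °C (6 libraries) are set here against wild type with the label 20 °C (6 libraries), which makes 12 of the 36 libraries of the series. A gene was examined if 6 or more of these 12 libraries held 10 or more of its counts, which left 16506 of the 46093 genes in the table. The series is linked to a study of ATFS-1, the transcription factor of the mitochondrial unfolded protein response, in which the mutants named here were compared, although its data statement names other series. Polyadenylated RNA of whole worms was sequenced, and the other 24 libraries are of *osm-5*, *eat-2* and *ife-2* at 20 °C and *glp-1* at 25 °C by their labels. Both wild-type groups share genotype, OP50 bacteria as food, NGM plates and collection after a limited lay, and no transgene or drug is named. They differ in the temperature label alone. The design of the series speaks of plates at 20 or 25 °C, while the growth conditions given for all 36 libraries name 20 °C, so that when and for how long the worms were at 25 °C is not known. Their stage is given both as young adults before fertility and as adults on day 1. The groups are therefore called by their labels, as the 20 °C and the 25 °C libraries. The 6 libraries of each group are given as biological replicates, but nothing says that they came from separate cultures, so the p-values measure the spread between these libraries.

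Worms at higher cultivation temperature develop faster and make fewer offspring, and they adjust their membranes by changing the desaturation of fatty acids. Heat shock factor and its target chaperones answer heat at the level of protein folding, the AFD neurons sense temperature, and temperature also enters the choice of the dauer stage. In a worm near the young adult stage the oocytes, the eggshell, the yolk proteins made by the intestine and the adult cuticle all come on within hours. A difference in stage between samples therefore shows first in those transcripts. *acdh-2* belongs to the acyl-CoA dehydrogenases, enzymes of fatty acid and branched-chain amino acid breakdown, and it is the gene used here as a marker of the comparison.

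Gene counts summed to 35524715 in the smallest and 45514002 in the largest of the 12 libraries. Ribosomal RNA took 1.85 to 11.0% of the counts in the 20 °C and 4.15 to 10.3% in the 25 °C libraries (exact two-sided permutation test, p = 0.506). The TMM factors, which scale libraries to each other, did not overlap (1.00 to 1.12 against 0.916 to 0.986), nor did the number of genes detected (20880 to 21157 against 19823 to 20682). For each of these differences p was 0.00216, the smallest that 924 arrangements of 6 against 6 libraries can give, and 0.00541 after adjustment over 5 library properties. The first principal component of log2 CPM (counts scaled to the size of the library and by TMM) took 47.0% of the variance and separated the groups. The second took 28.9%, and along it 25 °C replicates 1 and 3 lay at -0.65 and -0.53 and replicates 4 and 5 at 0.29 and 0.27. Within the groups, 82.6% of genes had the larger SD at 25 °C. Results that rest on replicates 1 and 3 are therefore also given without them. Because this choice was made after the data were seen, such counts describe the libraries that remain and are no separate support. Of the other groups, the libraries labelled *ife-2* had at most 0.712 CPM of the germ line transcript *pgl-1* against at least 192 CPM elsewhere, although *pgl-1* was at 224 to 314 CPM in those labelled *glp-1*. The *ife-2* transcript was highest under its own mutant's label (61.8 to 78.8 CPM), a range that overlapped that under the label *glp-1* (50.5 to 67.6 CPM). It was lowest under the label *eat-2* (3.13 to 3.84 CPM), beside 22.5 to 24.7 and 27.9 to 37.9 CPM in the 20 °C and 25 °C wild type. For the CPM of *pgl-1* and *ife-2* all 36 libraries were scaled together. These transcripts go against the labels of the mutant groups, whose values are given by label only.

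At 25 °C, 2139 genes were higher and 1808 were lower at a Benjamini-Hochberg adjusted p below 0.01 by edgeR's quasi-likelihood test, which is 13.0% and 11.0% of the 16506 genes tested and 23.9% together. These shares are the background against which the counts below should be read. Most changes were small, with a median size of 0.56 on the log2 scale among the genes called. At least 2-fold changes were seen in 249 genes that rose (1.51%) and 586 that fell (3.55%), and changes of more than 3 on the log2 scale in 7 that rose (0.0424%) and 70 that fell (0.424%). Of these 70, 32 had fewer than 10 counts in every 25 °C library, as had 72 of all 1808 falls, so that they passed the filter through the 20 °C libraries alone and had to differ. The groups did not overlap in 3207 genes (19.4%). Of the 3320 genes tested on chromosome V, 15.1% fell, compared with 9.07 to 10.4% on the other nuclear chromosomes. V holds 3320 of the 16506 genes tested and 36 of the 70 genes with the largest falls. How many of these 36 passed the filter through the 20 °C libraries alone was not counted. Pseudogenes fell in 114 and rose in 35 of 677. The balance of rises and falls depends on the scaling. With TMM the median of all genes was -0.02 and 54.2% of the calls were rises, but with total counts alone the median was -0.18 and 19.2% were rises (868 up, 3646 down). In the plot of every gene tested the falls reach much further from 0 than the rises.

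**Figure D1:**
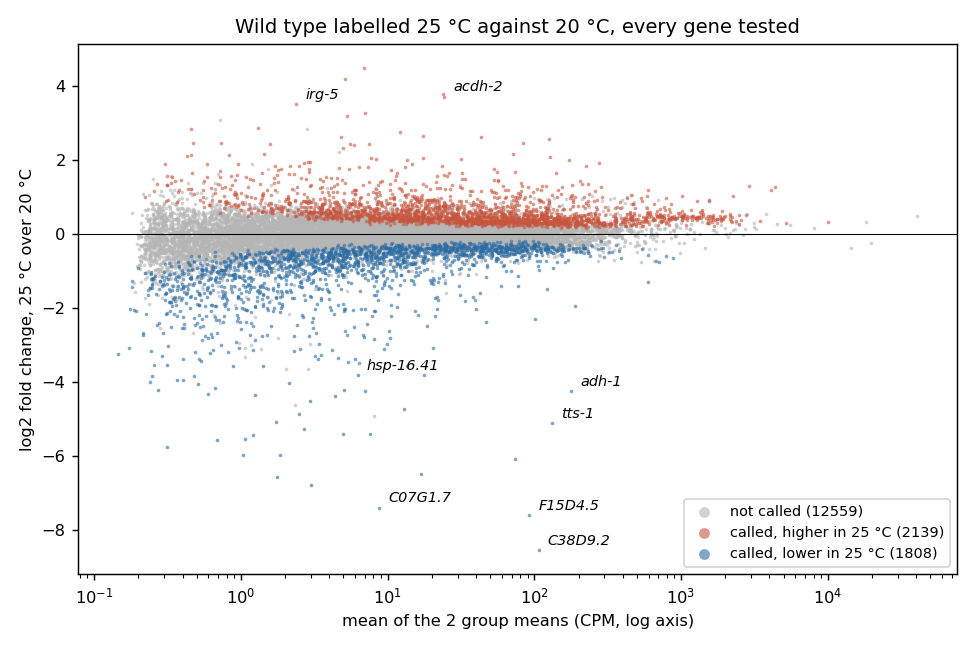
Log2 fold change of 25 °C over 20 °C (vertical axis) against the mean of the group means in CPM (horizontal log axis) for the 16506 genes tested, each a point, with the 2139 called rises in red, the 1808 called falls in blue and the others in grey. The falls extend to -8.54 for *C38D9.2*, while *acdh-2* rose by 3.69.

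*acdh-2* (WBGene00015894, chromosome II from 5544778 to 5547492, minus strand; coordinates here are those of WBcel235) showed the largest rise among genes whose groups did not overlap. Its lowest, median and highest levels were 1.56, 3.72 and 5.63 CPM in the 20 °C libraries and 38.5, 44.6 and 54.7 CPM in the 25 °C libraries (log2 fold change 3.69, standard error 0.254, adjusted p = 2.56e-07). All 6 libraries at 25 °C lay far above the highest library at 20 °C. Some other genes of propionate breakdown rose with it. *hach-1*, a hydroxyacyl-CoA hydrolase of the propionate shunt, was at 138, 160.3 and 185 CPM in the 20 °C libraries and 318, 354 and 410.1 CPM in the 25 °C libraries (log2 fold change 1.16, adjusted p = 1.78e-07). *ech-6*, the enoyl-CoA hydratase of the same route, was at 328, 352 and 402 CPM in the 20 °C libraries and 664, 696 and 776 CPM in the 25 °C libraries (log2 fold change 0.97, adjusted p = 1.36e-07). The groups did not overlap for either. *acdh-1*, the acyl-CoA dehydrogenase of the shunt, rose by 0.59 (adjusted p = 9.38e-05), from 994 to 1249 CPM to 1426 to 1894 CPM. Of the 24 genes in a list of propionate breakdown and acyl-CoA dehydrogenases, 8 rose and 1 fell, with a median of 0.16. The single fall was not called without 20 °C replicate 1, 2, 4 or 6 or 25 °C replicate 2 or 6, each left out alone. Falls numbered 4 with total counts alone, and rises were called in 8 also when all 36 libraries were fitted together. Part of the exons of *acdh-2* are annotated to *ins-13* on the same strand, so reads there cannot be assigned to one gene with certainty.

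The largest falls left little or no transcript at 25 °C. *C38D9.2* (WBGene00008010, chromosome V from 17567150 to 17571742, plus strand), a protein-coding gene with no function named in the annotation used, was at 187, 215 and 231 CPM in the 20 °C libraries and 0.211, 0.676 and 0.691 CPM in the 25 °C libraries (log2 fold change -8.54, standard error 0.189, adjusted p = 3.91e-12). *F15D4.5* (WBGene00008862, chromosome II from 13245376 to 13247774, plus strand) was at 144, 187 and 202 CPM in the 20 °C libraries and 0.761, 0.908 and 1.27 CPM in the 25 °C libraries (log2 fold change -7.60, adjusted p = 9.08e-13). *C07G1.7*, on chromosome IV, was at 16.1, 17.2 and 18.8 CPM in the 20 °C libraries and 0, 0.0656 and 0.334 CPM in the 25 °C libraries (log2 fold change -7.40, adjusted p = 2.11e-08). No overlap was a condition for naming the largest falls, and in these 3 genes the lowest 20 °C library lay far above the highest 25 °C library. *W09B7.1* and *W09B7.2*, neighbours on chromosome V, were at 25.6, 34.9 and 39.1 and at 107, 149.5 and 175 CPM in the 20 °C libraries. In the 25 °C libraries they were at 0.185, 0.383 and 0.533 and at 1.04, 2.20 and 2.74 CPM, with log2 fold changes of -6.48 and -6.09 (adjusted p = 2.02e-10 and 2.93e-10). *F40D4.13* was at 11.3, 15.7 and 17.5 CPM in the 20 °C libraries and 0.158, 0.343 and 0.548 CPM in the 25 °C libraries (log2 fold change -5.40, adjusted p = 1.16e-09). *clec-15*, a C-type lectin, went from 1.51 to 4.14 CPM to 0 to 0.230 CPM (log2 fold change -5.44). It had fewer than 10 counts in every 25 °C library and passed the filter through the 20 °C libraries alone, so its p is not given. Without 25 °C replicate 5 the log2 fold change of *C07G1.7* was -8.43, and without 25 °C replicate 3 that of *clec-15* was -6.68.

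In 5 of the 12 largest falls no 25 °C library had more than 3 counts, so their change is given as a lower bound against a floor of 3 counts per library, which covers counting error only. *ZK177.9* was at least 47.6-fold lower (20 °C: 2.42, 3.64 and 4.97 CPM) and *grl-23*, one of the ground-like proteins related to Hedgehog, at least 45.3-fold lower (20 °C: 1.28, 3.53 and 7.09 CPM). *cut-1*, a cuticlin known from the dauer cuticle, was at least 27.4-fold lower (20 °C: 0.538, 2.12 and 3.91 CPM). For *C13A2.12* the bound was 26.5-fold (20 °C: 0.381, 1.99 and 3.91 CPM), and for the F-box gene *fbxa-172* it was 17.5-fold (20 °C: 1.08, 1.25 and 1.74 CPM). *cut-1*, *grl-23* and *C13A2.12* varied alike among the 20 °C libraries, with replicate 1 highest and replicates 2 and 5 lowest in each. The dauer collagens *col-2* and *col-40* had the same order. *col-2* was at 2.57, 6.76 and 14.3 CPM in the 20 °C libraries and 1.30, 1.56 and 1.91 CPM in the 25 °C libraries, and *col-40* at 2.02, 5.28 and 12.03 CPM in the 20 °C libraries and 0.697, 0.867 and 1.28 CPM in the 25 °C libraries. Both dauer collagens fell without overlap of the groups (log2 fold changes -2.17 and -2.67, adjusted p = 0.000333 and 0.000145). Exons of *grl-23*, *ZK177.9*, *cut-1*, *col-2* and *col-40* overlap a gene on the opposite strand, and whether the counting used strand is not stated.

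**Figure D2:**
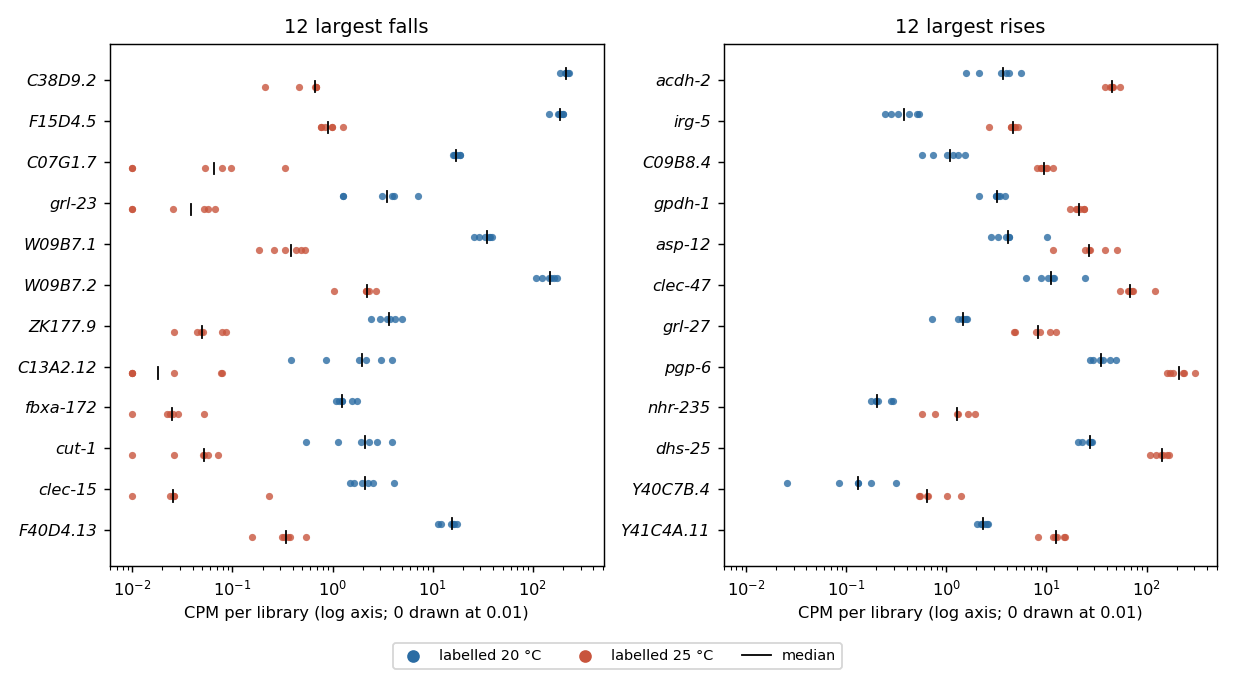
CPM in each library (horizontal log axis, with 0 drawn at 0.01) for the 12 largest falls (left) and the 12 largest rises (right) among protein-coding genes, with 6 points per group in blue for 20 °C and red for 25 °C and a bar at each median. The groups do not overlap in any of the 24 genes because this was a condition for naming them, and the falls span wider gaps than the rises.

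A minority of the genes with changes of more than 3 on the log2 scale were neighbours. Of 77 such genes, 15 lay within 20000 bases of another, in 7 groups, 6 of which fell. The share among all genes tested was not computed, so the count cannot show that genes with such changes cluster. Some of the 15 passed the filter through the 20 °C libraries alone. On chromosome V, *C38D9.2* lies between *fbxa-172* and *C38D9.13*, a noncoding RNA picked after its values were seen, which was at 5.48, 5.97 and 6.23 CPM in the 20 °C libraries and 0.0240, 0.0484 and 0.102 CPM in the 25 °C libraries (log2 fold change -6.79) and, like *fbxa-172*, passed the filter through the 20 °C libraries alone. On chromosome II, *F15D4.6* follows *F15D4.5* and was at 11.4, 13.4 and 15.7 CPM in the 20 °C libraries and 0.505, 0.714 and 0.818 CPM in the 25 °C libraries (log2 fold change -4.26, adjusted p = 9.61e-11), while *F15D4.4*, on its other side, fell by 0.89 (adjusted p = 1.64e-05). Both were picked after their values were seen. Of the pairs on chromosome V, *D1014.6* and *D1014.7* rose together. Their medians were 0.586 and 0.534 CPM at 20 °C and 15.1 and 10.6 CPM at 25 °C, but replicates 1 and 3 of the 25 °C libraries were at 1.40 and 0.461 CPM of *D1014.6* and at 0.633 and 0.259 CPM of *D1014.7*, and the groups overlapped. The log2 fold changes were 4.47 (adjusted p = 0.000684) and 4.19 (adjusted p = 0.00153). The call of *D1014.7* was lost with the oocyte list level as a covariate (log2 fold change 2.27, adjusted p = 0.0158). Without 25 °C replicates 1 and 3 the log2 fold changes were 5.04 and 4.77. Both were picked after their values were seen.

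A pair of alcohol dehydrogenase genes, neighbours on opposite strands of chromosome V, were also among them. *adh-1*, one of the 5 largest falls at a mean of at least 100 CPM, was at 261, 339.6 and 410.3 CPM in the 20 °C libraries and 13.0, 15.5 and 31.6 CPM in the 25 °C libraries (log2 fold change -4.25, standard error 0.220, adjusted p = 1.85e-08). *sodh-2*, picked after its values were seen, was at most 0.0864 CPM at 25 °C, at or under the floor in every library, and at least 5.77-fold lower. The exons of these genes overlap, so that reads from one may be counted for the other and the pair is not counted as separate falls with certainty. The other strong falls among abundant genes were those of *lys-7*, a lysozyme (253, 304 and 355 against 63.1, 75.3 and 102 CPM, log2 fold change -1.96), of *thn-2*, a thaumatin family gene (144, 178 and 239.6 against 40.4, 67.2 and 91.2 CPM, -1.50), and of the collagen *col-95* (83.3, 167 and 267 against 18.1, 34.5 and 49.5 CPM, -2.30). The adjusted p-values were 4.8e-08, 6.7e-05 and 4.76e-05. None of the 3 overlapped between groups, which was a condition for naming them. *tts-1*, a long noncoding RNA of the X chromosome that associates with ribosomes, was picked after its values were seen. It was at 211, 242 and 337 CPM in the 20 °C libraries and 3.05, 5.70 and 17.9 CPM in the 25 °C libraries (log2 fold change -5.12, standard error 0.379, adjusted p = 5.17e-07). Replicate 3 was the highest of the 25 °C libraries for *tts-1* and for *adh-1*, and without replicates 1 and 3 the log2 fold change of *tts-1* was -5.73.

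The rises were of several kinds. *irg-5*, an infection response gene, was at 0.246, 0.375 and 0.530 CPM in the 20 °C libraries and 2.69, 4.59 and 5.21 CPM in the 25 °C libraries (log2 fold change 3.49, adjusted p = 8.05e-08). *gpdh-1*, the glycerol-3-phosphate dehydrogenase that makes glycerol in osmotic stress, was at 2.11, 3.22 and 3.84 CPM in the 20 °C libraries and 17.0, 20.95 and 23.8 CPM in the 25 °C libraries (log2 fold change 2.74, adjusted p = 1.12e-08). *dhs-25*, a short-chain dehydrogenase, was at 20.9, 27.1 and 28.4 CPM in the 20 °C libraries and 108, 143 and 168 CPM in the 25 °C libraries (log2 fold change 2.45, adjusted p = 8.43e-09). The groups did not overlap in these 3 genes, which was a condition for naming them. *asp-12*, an aspartyl protease, rose from 2.81, 4.08 and 10.2 to 11.6, 26.7 and 51.1 CPM, with 20 °C replicate 2 alone close to the lowest 25 °C library. *clec-47*, a C-type lectin, rose from 6.21, 11.0 and 24.3 to 53.7, 68.9 and 121 CPM, and its highest 20 °C library was replicate 5. *grl-27* rose by 2.60, a ground-like gene like *grl-23*, which fell. Further rises without a named function were those of *C09B8.4* (3.17), *Y40C7B.4* (2.44) and *Y41C4A.11* (2.42), and the nuclear hormone receptor *nhr-235* rose by 2.46. Exons of *gpdh-1* overlap a gene on the other strand.

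The 5 largest rises at a mean of at least 100 CPM were of varied function. *pgp-6*, a P-glycoprotein of the ABC transporters that export small molecules, was at 27.1, 35.4 and 49.3 CPM in the 20 °C libraries and 159, 208 and 305 CPM in the 25 °C libraries (log2 fold change 2.55, standard error 0.186, adjusted p = 4.62e-07). Its neighbours on the X chromosome, *pgp-5* and *pgp-8*, rose by 1.17 and 1.51 (adjusted p = 0.000705 and 3.15e-06, the former picked after its values were seen), and 4 of 14 *pgp* genes tested rose and 2 fell. *folt-2*, of the folate transporter family, was at 99.96, 118 and 138 CPM in the 20 °C libraries and 376, 435 and 496 CPM in the 25 °C libraries (log2 fold change 1.91, adjusted p = 5.57e-09). *spp-17*, of the saposin-like proteins, a family with antibacterial members, was at 42.2, 49.0 and 58.2 CPM in the 20 °C libraries and 169, 207 and 235 CPM in the 25 °C libraries (log2 fold change 2.06, adjusted p = 5.29e-09). *col-149*, a cuticle collagen, was at 61.4, 69.4 and 76.1 CPM in the 20 °C libraries and 229, 268 and 333 CPM in the 25 °C libraries (log2 fold change 1.997, adjusted p = 5.57e-09), with an exon overlap on the opposite strand. *C30G12.2* rose by 1.82 (adjusted p = 4.44e-07). The spread within each group was small beside these differences. Groups without overlap were a condition for naming these 5 genes.

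Most *hsp-16* genes and *hsp-70*, which heat induces, were lower and not higher in the 25 °C libraries. *hsp-16.41*, a small heat shock protein, was at 6.40, 11.9 and 15.4 CPM in the 20 °C libraries and 0.288, 0.893 and 1.35 CPM in the 25 °C libraries (log2 fold change -3.82, standard error 0.307, adjusted p = 1e-06). Its neighbour *hsp-16.2* was at 3.56, 8.63 and 11.1 CPM in the 20 °C libraries and 0.264, 0.847 and 1.56 CPM in the 25 °C libraries (log2 fold change -3.36, adjusted p = 1.26e-05). *hsp-70*, an inducible cytosolic HSP70, was at 8.80, 13.4 and 15.7 CPM in the 20 °C libraries and 1.36, 2.58 and 5.27 CPM in the 25 °C libraries (log2 fold change -2.10, adjusted p = 0.00014). In all 3 the groups did not overlap, and 20 °C replicate 5 was the lowest library of its group. By contrast *sti-1*, the co-chaperone that links HSP70 and HSP90, was at 45.2, 59.6 and 93.9 CPM in the 20 °C libraries and 124, 143 and 165 CPM in the 25 °C libraries (log2 fold change 1.20, adjusted p = 5.07e-05), and there 20 °C replicate 5 was the highest of its group. Of 35 cytosolic heat shock and chaperone genes tested, 3 rose and 6 fell, with a median of 0.02, and the 6 that fell were 4 *hsp-16* genes, *hsp-70* and *unc-45*, a myosin chaperone picked after its values were seen (-0.28, a call lost in 9 of the 12 fits that leave out 1 library, with an adjusted p up to 0.0187 without 20 °C replicate 3). For *hsp-16.11* the log2 fold change was -1.02 (adjusted p = 0.0629), and *hsp-12.1*, another small heat shock protein, rose by 0.59 (adjusted p = 0.00635), a call lost in 8 of the 12 fits without 1 library, with an adjusted p up to 0.0175 without 20 °C replicate 3 and 0.598 with all 36 libraries. *hsp-16.11* was picked after its values were seen. The rises and falls of the list were 1 and 8 with total counts alone and 1 and 3 with all 36 libraries in one fit. The *hsp-16* genes are close copies of each other, and how reads were divided among them was not examined.

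Chaperones and regulators of the endoplasmic reticulum and the mitochondria changed in both directions. *hsp-6*, the mitochondrial HSP70 that the study uses as the target gene of the mitochondrial unfolded protein response, was at 901, 960.3 and 991 CPM in the 20 °C libraries and 578, 636 and 647 CPM in the 25 °C libraries (log2 fold change -0.60, standard error 0.0452, adjusted p = 5.71e-07). *atfs-1* itself was at 73.7, 84.8 and 96.1 CPM in the 20 °C libraries and 46.7, 57.1 and 73.7 CPM in the 25 °C libraries (log2 fold change -0.55, adjusted p = 0.000855), and *pek-1*, the kinase of the endoplasmic reticulum stress response, at 41.4, 42.9 and 44.9 CPM in the 20 °C libraries and 22.2, 27.1 and 29.4 CPM in the 25 °C libraries (log2 fold change -0.71, adjusted p = 1.29e-05). *hsp-3*, a BiP chaperone of the endoplasmic reticulum, was at 577, 652 and 839 CPM in the 20 °C libraries and 776, 1023 and 1189.8 CPM in the 25 °C libraries (log2 fold change 0.59, adjusted p = 0.000768), and with total counts alone it was not called (adjusted p = 0.0134). *pdi-6*, a protein disulphide isomerase, rose by 0.74 (adjusted p = 0.000406). Of 19 such genes 5 rose and 5 fell, with a median of 0.08, against 2 and 9 with total counts alone and 3 and 3 with all 36 libraries in one fit. Of the other target genes that the study uses, *gst-4* (SKN-1 pathway) rose by 0.55 (adjusted p = 0.000209, and 0.476 with all 36 libraries in one fit) and *nhr-57* (HIF-1 pathway) fell by 0.41 (adjusted p = 0.00574), a call lost in 7 of the 12 fits that leave out 1 library, with an adjusted p up to 0.0173 without 25 °C replicate 4 and of 0.0225 with all 36 libraries in one fit. For *hsp-4*, *sod-3*, *Y9C9A.8* and *trx-2* the log2 fold changes were 0.08, 0.07, 0.28 and -0.10, with adjusted p-values from 0.26 to 0.802. All of these but *gst-4* were named for their use in the study, outside the rule. Exons of *gst-4* and *nhr-57* overlap a gene on the same strand.

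**Figure D3:**
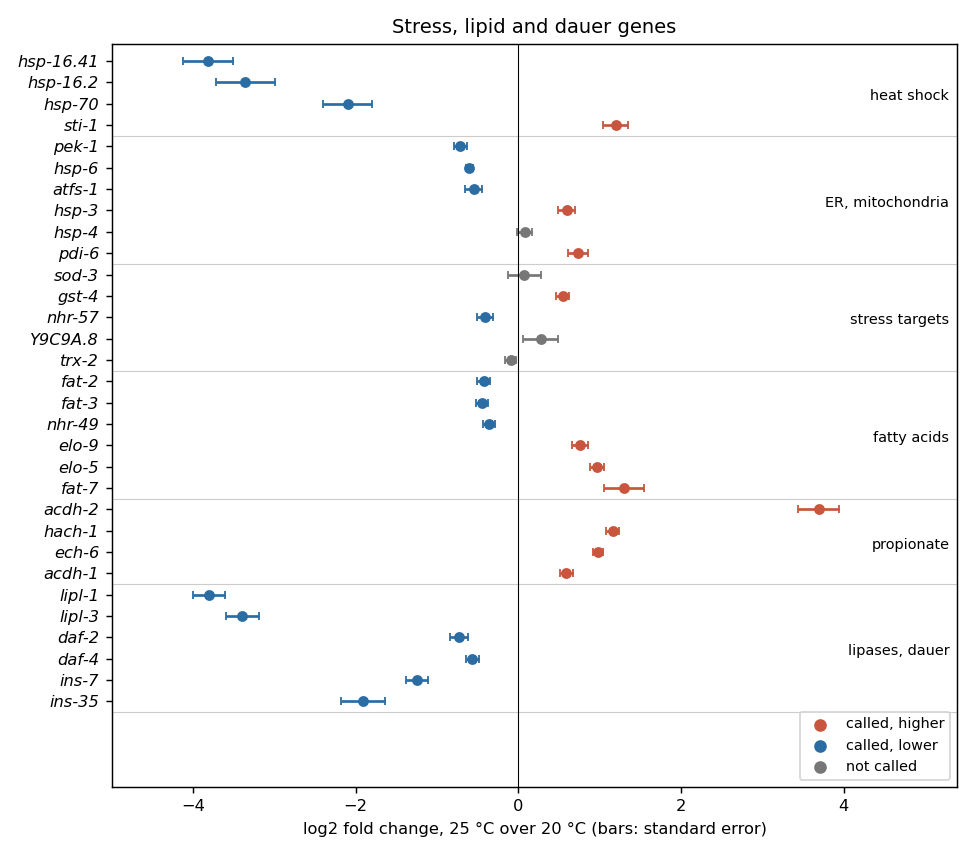
Log2 fold change of 25 °C over 20 °C (horizontal axis) with its standard error for 31 stress, lipid and dauer genes, in red for called rises, blue for called falls and grey for genes not called. The *hsp-16* genes, *hsp-70* and the lipases lie furthest to the left, and *acdh-2* furthest to the right.

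Genes that shape membrane lipids changed in both directions. *fat-7*, a stearoyl-CoA desaturase that makes oleate, was at 29.5, 43.4 and 79.5 CPM in the 20 °C libraries and 71.6, 116 and 164 CPM in the 25 °C libraries (log2 fold change 1.30, adjusted p = 0.00116), with 20 °C replicate 5 inside the range of the 25 °C libraries. *elo-5*, the elongase of branched-chain fatty acids, was at 106, 116 and 130.1 CPM in the 20 °C libraries and 199.99, 224 and 289.5 CPM in the 25 °C libraries (log2 fold change 0.97, adjusted p = 2.24e-06). *elo-9* rose by 0.76 (adjusted p = 5.88e-05). Of the desaturases of polyunsaturated fatty acids, *fat-2* was at 575, 618 and 707 CPM in the 20 °C libraries and 400.5, 462 and 555 CPM in the 25 °C libraries (log2 fold change -0.43, adjusted p = 0.00118) and *fat-3* at 149.7, 161 and 173 CPM in the 20 °C libraries and 101, 115.4 and 140.0 CPM in the 25 °C libraries (log2 fold change -0.45, adjusted p = 0.000459), while *fat-1* and *fat-4*, named after their values were seen, were not called (log2 fold changes -0.06 and -0.22, adjusted p = 0.542 and 0.0161). *nhr-49*, the nuclear receptor that controls fatty acid genes, fell by 0.36 (adjusted p = 0.00152). Of 27 genes of desaturation, elongation and membrane fluidity 7 rose and 4 fell, with a median of 0.12, and the counts were 5 and 8 with total counts alone and 4 and 3 with all 36 libraries in one fit. Exons of *elo-5* overlap a gene on the opposite strand.

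The genes of this paragraph were picked one by one from the strong falls after their values were seen and stand for no pathway. Of 7 *lipl* genes tested 3 fell. *lipl-1*, a lysosomal lipase, was at 20.5, 32.7 and 43.0 CPM in the 20 °C libraries and 1.63, 2.55 and 2.95 CPM in the 25 °C libraries (log2 fold change -3.80, adjusted p = 1.84e-08). *lipl-3*, another, was at 8.71, 10.0 and 16.9 CPM in the 20 °C libraries and 0.761, 1.07 and 1.29 CPM in the 25 °C libraries (log2 fold change -3.40, adjusted p = 5.93e-08). All 6 libraries at 25 °C were below all 6 at 20 °C in both. *fmo-2*, a flavin monooxygenase, was at 0.418, 1.45 and 2.96 CPM in the 20 °C libraries and 0.0522, 0.128 and 0.216 CPM in the 25 °C libraries, and it passed the filter through the 20 °C libraries alone. *ilys-3*, an invertebrate lysozyme of the gut, fell by 3.38, and *dod-3*, named for its control by DAF-16, by 4.21 (adjusted p = 5.46e-08 and 5.7e-07). Exons of *lipl-3* overlap a gene on the same strand.

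Some genes of insulin and TGF-beta signalling, which control dauer entry, were lower. *daf-2*, the insulin receptor, was at 139, 149.9 and 158 CPM in the 20 °C libraries and 66.4, 91.0 and 113 CPM in the 25 °C libraries (log2 fold change -0.73, adjusted p = 0.000205). *daf-4*, a TGF-beta receptor, was at 37.4, 38.1 and 40.0 CPM in the 20 °C libraries and 22.5, 25.0 and 30.5 CPM in the 25 °C libraries (log2 fold change -0.57, adjusted p = 0.000127), and *daf-14*, a SMAD protein, fell by 0.46 (adjusted p = 0.00057). Of 20 genes of dauer and steroid hormone signalling 1 rose and 4 fell, with a median of -0.20. The single rise was not called without 20 °C replicate 2, 3, 4 or 6, each left out alone, while 3 genes rose without 25 °C replicate 1 and 2 without replicate 3. Rises and falls were 0 (1 at an unadjusted p below 0.05) and 8 with total counts alone and 4 and 6 without 25 °C replicates 1 and 3. Of 26 *ins* genes, the insulin-like peptides, 3 fell (11.5%, beside 11.0% of all genes). The members *ins-35* and *ins-7* fell by 1.91 and 1.25 (adjusted p = 0.000116 and 1.15e-05), calls not made when all 36 libraries were fitted together (adjusted p = 0.0227 and 0.129). *pqm-1*, a transcription factor that opposes DAF-16, was at 33.1, 36.4 and 38.2 CPM in the 20 °C libraries and 14.2, 18.5 and 21.3 CPM in the 25 °C libraries (log2 fold change -0.999, adjusted p = 2.5e-06). It was the only gene called of 8 in a list of yolk uptake and control of *vit* genes, whose median was -0.09. Of 15 genes of temperature sensing only *pkc-1*, a protein kinase C of sensory neurons, was called, at -0.50 (adjusted p = 4.19e-05), and the list median was -0.20. DESeq2 called 2 of them lower, as did total counts alone.

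Signs of stage were examined list by list, beginning with oocytes. None of 26 oocyte and eggshell genes was called by edgeR or by DESeq2, although all 26 had log2 fold changes below 0, from -0.58 to -0.19 with a median of -0.34. At an unadjusted p below 0.05 there were 5, all lower. These counts depend on the scaling. With total counts alone in edgeR 2 of the 26 fell, and 20 were lower at an unadjusted p below 0.05. The mean log2 CPM of the list was between 7.74 and 8.35 in the 20 °C libraries. At 25 °C it was 8.35, 7.54, 8.16, 6.92, 7.16 and 7.73 in replicates 1 to 6. Replicates 1 and 3 thus lay within the 20 °C range or at its top, and the other 4 below its lowest library. The SD was larger at 25 °C in 26 of 26 genes. Without 25 °C replicates 1 and 3, 23 of 26 fell, with a median of -0.68, and without replicate 1 alone 4 did. Replicates 1 and 3 were left out after the data were seen, and the 4 that remain are those below the 20 °C range. The count of 23 therefore describes those 4 libraries and is no test of a fall at 25 °C. *rme-2*, the yolk receptor of oocytes, was at 426, 575 and 689 CPM in the 20 °C libraries and 261, 425 and 722 CPM in the 25 °C libraries (log2 fold change -0.30, adjusted p = 0.281), and *oma-1*, an RNA-binding protein of oocyte maturation, at 138, 159 and 187 CPM in the 20 °C libraries and 87.0, 125 and 196 CPM in the 25 °C libraries (log2 fold change -0.24, adjusted p = 0.304). These 2 were chosen for their role outside the rule. In bulk samples, fewer cells of a type and less RNA per cell cannot be told apart.

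The sperm list and the *msp* family differed in how many genes passed the test. Of 28 sperm genes tested 4 rose (14.3%), with a median of 0.32 and 14 at an unadjusted p below 0.05, and DESeq2 called 8. The mean log2 CPM of the list ran from 3.36 to 3.77 at 20 °C and from 3.51 to 3.96 at 25 °C, and the groups overlapped through 20 °C replicate 5 and 25 °C replicate 1. *msd-4*, of the major sperm protein domain family, was at 68.1, 77.2 and 87.4 CPM in the 20 °C libraries and 92.7, 116 and 138 CPM in the 25 °C libraries (log2 fold change 0.56, adjusted p = 0.00093). *peel-1*, the toxin carried by sperm, rose by 0.46, and *gsp-3*, a sperm phosphatase, by 0.44 (adjusted p = 0.000948 and 0.00301). Of 31 *msp* genes, near-identical copies among which reads cannot be divided with certainty, 18 rose (58.1%) with a median of 0.32, but only 8 without 20 °C replicate 2 and 9 without replicate 3, 4 or 6. When all 36 libraries were fitted together by edgeR, 0 sperm list genes (5 at an unadjusted p below 0.05) and 2 *msp* genes were called, with an adjusted p of 0.605 for *msd-4*, and without 25 °C replicate 1 there were 9 of the list. Without 25 °C replicates 1 and 3, 13 of the 28 rose, with a median of 0.39. Only 1 list gene and 2 *msp* genes rose with total counts alone, where *peel-1* and *gsp-3* were not called (adjusted p = 0.0197 and 0.0674), nor were they with all 36 libraries (adjusted p = 0.362 and 0.0919).

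Few germ line genes passed the test with all 12 libraries. Of 30 genes of the mitotic and meiotic germ line 2 rose, with a median of -0.14. *fbf-2*, a PUF protein that keeps germ line stem cells, was at 26.4, 28.8 and 30.7 CPM in the 20 °C libraries and 38.3, 40.4 and 42.6 CPM in the 25 °C libraries (log2 fold change 0.50, adjusted p = 1.76e-05). *glh-1*, a helicase of P granules, was at 464, 496 and 525 CPM in the 20 °C libraries and 522, 647 and 676 CPM in the 25 °C libraries (log2 fold change 0.34, adjusted p = 0.00106), a call lost with total counts alone (adjusted p = 0.0655) and with all 36 libraries in one fit (adjusted p = 0.0225). Without 25 °C replicates 1 and 3, 13 of the 30 fell and 2 rose, and without replicate 1 alone 3 fell, while 8 fell with total counts alone. The list levels overlapped, from 6.46 to 6.72 mean log2 CPM at 20 °C and from 6.28 to 6.83 at 25 °C. Of 12 genes switched on in the early embryo only 2 passed the filter on low counts.

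The yolk genes changed unequally. *vit-1* was at 826, 1680.4 and 2332 CPM in the 20 °C libraries and 2316, 3775 and 6165 CPM in the 25 °C libraries (log2 fold change 1.29, standard error 0.288, adjusted p = 0.00335), *vit-3* at 1233, 2522 and 3574 CPM in the 20 °C libraries and 3421, 5424 and 9452 CPM in the 25 °C libraries (log2 fold change 1.25, adjusted p = 0.00423) and *vit-4* at 1330.1, 2451 and 3539.5 CPM in the 20 °C libraries and 3428, 4999 and 8506 CPM in the 25 °C libraries (log2 fold change 1.17, adjusted p = 0.00328). In each of the 3 the groups overlapped. *vit-2* was at 12192, 16139.7 and 21634 CPM in the 20 °C libraries and 8544, 11224 and 18093 CPM in the 25 °C libraries (log2 fold change -0.39, adjusted p = 0.121) and *vit-6* at 15299, 20918 and 27903 CPM in the 20 °C libraries and 12113, 15627 and 29377 CPM in the 25 °C libraries (log2 fold change -0.25, adjusted p = 0.355), and neither passed the threshold. *vit-5* was at 3618, 7626 and 10928 CPM in the 20 °C libraries and 4833, 7460.3 and 12961 CPM in the 25 °C libraries (log2 fold change 0.14, adjusted p = 0.711). Within the 25 °C libraries replicates 1 and 3 were the highest for *vit-1* (6165 and 6159 CPM) and for *vit-2* (16782 and 18093 CPM), the libraries with the most oocyte RNA. Without these 2 libraries 3 of 6 *vit* genes rose and 2 fell. The rises of *vit-1* and *vit-3* missed the threshold without 20 °C replicate 2 (adjusted p = 0.01 and 0.0121), and that of *vit-3* also without 20 °C replicate 3 (adjusted p = 0.0113) and replicate 6 (adjusted p = 0.0107). With all 36 libraries in one fit the adjusted p was 0.018 for *vit-3* and 0.0197 for *vit-4*. The *vit-3*, *vit-4* and *vit-5* genes are close copies, and exons of *vit-2*, *vit-3* and *vit-4* overlap a gene on the opposite strand.

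Collagens of the adult cuticle were higher in part. *col-7* was at 107, 114.6 and 156 CPM in the 20 °C libraries and 258, 296 and 367 CPM in the 25 °C libraries (log2 fold change 1.35, adjusted p = 7.49e-07) and *col-62* at 114, 128 and 167 CPM in the 20 °C libraries and 286, 323 and 396 CPM in the 25 °C libraries (log2 fold change 1.33, adjusted p = 5.51e-07), both without overlap. *col-19*, the usual marker of the adult cuticle, was at 1457, 1608 and 1809.9 CPM in the 20 °C libraries and 1262, 1714 and 2229.5 CPM in the 25 °C libraries (log2 fold change 0.11, adjusted p = 0.492). *col-63* was at 113, 179.8 and 257 CPM in the 20 °C libraries and 90.2, 316 and 472 CPM in the 25 °C libraries (log2 fold change 0.72, adjusted p = 0.142), and the strut collagens *bli-1* and *bli-2* had log2 fold changes of 0.59 and 0.56 (adjusted p = 0.443 and 0.436). For *bli-1* 25 °C replicates 1 and 3 were at 10.4 and 22.6 CPM, below every 20 °C library, and the other 4 at 148 CPM or more, above every 20 °C library. Collagens made at each moult had the same split. None of 15 was called by edgeR or DESeq2 (3 higher and 1 lower at an unadjusted p below 0.05), and their mean log2 CPM was 3.78 and 4.20 in 25 °C replicates 1 and 3, 5.38 to 6.39 at 20 °C and 6.08 to 6.68 in the others. Without replicates 1 and 3, 5 of 6 adult cuticle genes, 7 of 15 moult collagens and 12 of 25 moulting genes rose. With the oocyte list level as a covariate, also chosen after the data were seen, the rises were 3, 0 and 1 in the same order. The falls were then 0, 10 and 16, with medians of 0.01, -1.06 and -0.66. The direction of the 2 moult lists thus depends on the setting. Over all 138 *col* genes 45 rose and 14 fell, with a median of 0.49, while the rises were 27 with all 36 libraries in one fit and 78 without 25 °C replicates 1 and 3. Their summed level was 42546 to 48182 CPM at 20 °C and 54285 to 64601 CPM at 25 °C.

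**Figure D4:**
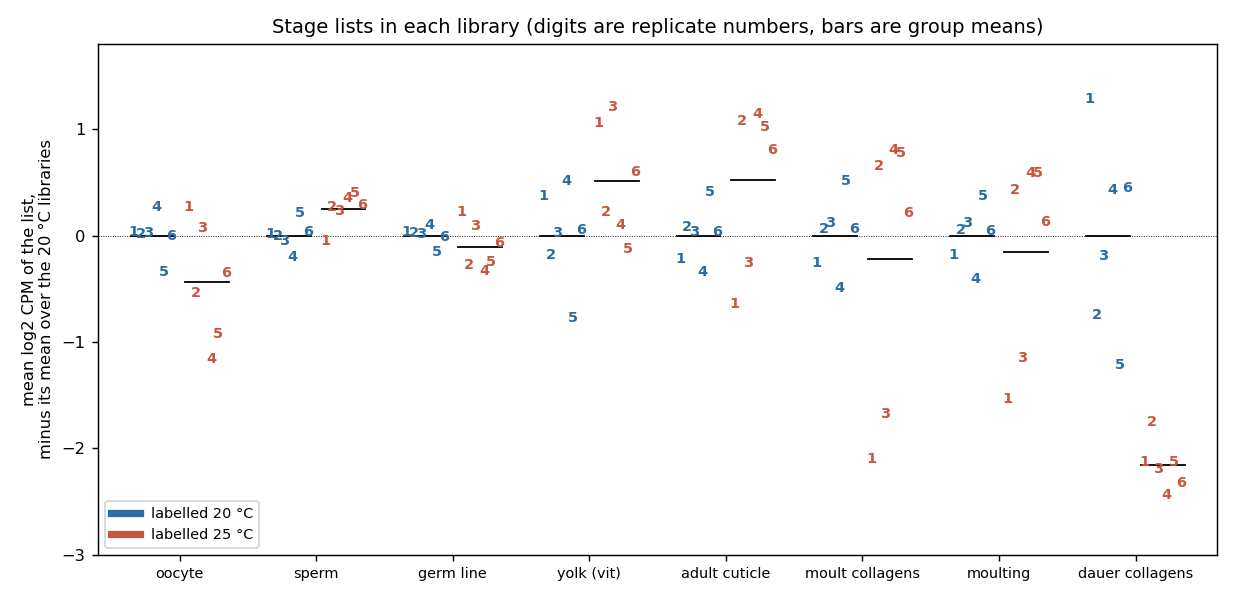
Mean log2 CPM of 8 stage lists in each library, minus the mean of the 20 °C libraries (vertical axis), with digits for replicate numbers in blue (20 °C) and red (25 °C) and bars for group means. Red 1 and 3 sit high for oocyte and yolk genes and low for adult cuticle and moult genes, red 4 and 5 the other way round, and only the dauer collagens leave the groups wholly apart.

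Markers of germ line, muscle, pharynx, intestine, neurons and hypodermis were all found, which fits whole worms, and their lists moved unequally. Of 16 body wall muscle genes 10 rose, with a median of 0.36, but 3 did with total counts alone and 7 with all 36 libraries in one fit. *mup-2*, troponin T, was at 436, 459 and 569 CPM in the 20 °C libraries and 688, 841 and 963 CPM in the 25 °C libraries (log2 fold change 0.80, adjusted p = 1.1e-05), and *tni-1*, troponin I, at 48.5, 58.0 and 69.9 CPM in the 20 °C libraries and 71.4, 99.3 and 124 CPM in the 25 °C libraries (log2 fold change 0.77, adjusted p = 0.000687). *unc-87*, a thin filament protein, rose by 0.46. Of 11 pharynx genes 5 rose, with a median of 0.54, among them *pqn-54* (0.90), *abu-11* (0.80) and *abu-7* (0.79), but 0 when all 36 libraries were fitted together by edgeR (3 at an unadjusted p below 0.05, adjusted p = 0.0413 to 0.0713 for the 3 named). The *abu* genes, which encode glutamine-rich proteins of the pharyngeal cuticle, rose in 9 of 13, but in 1 with all 36 libraries in one fit. With total counts alone 3 of the pharynx list and 6 *abu* genes rose. Of 11 intestine genes 5 rose and 2 fell, and only 1 fell without any 1 library other than 20 °C replicate 5. These counts were 3 and 2 with total counts alone, 3 and 0 (2 at an unadjusted p below 0.05) with all 36 libraries in one fit and 6 and 1 without 25 °C replicates 1 and 3. *mtl-2*, a metallothionein, was at 13.3, 18.1 and 21.2 CPM in the 20 °C libraries and 32.5, 44.9 and 83.3 CPM in the 25 °C libraries (log2 fold change 1.47, adjusted p = 0.000114), *act-5*, the actin of microvilli, rose by 0.66, and *cpr-1*, a cathepsin B protease, fell by 0.74. With all 36 libraries in one fit *mtl-2* and *cpr-1* were not called (adjusted p = 0.112 and 0.0316). Of 13 hypodermis genes none was called by edgeR or DESeq2 (2 higher and 2 lower at an unadjusted p below 0.05), and 1 rose without 25 °C replicate 5, while the rises and falls were 0 and 2 with total counts alone and 4 and 1 without 25 °C replicates 1 and 3. With the oocyte list level as a covariate the hypodermis rises and falls were 1 and 6.

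Some genes of neurons and cilia were lower. Of 17 neuron genes 4 fell, with a median of -0.09, and 2 fell without 25 °C replicate 6 and 1 with all 36 libraries in one fit. *egl-3*, the convertase that cuts neuropeptide precursors, was at 134, 140.2 and 157 CPM in the 20 °C libraries and 87.2, 105 and 112 CPM in the 25 °C libraries (log2 fold change -0.47, adjusted p = 0.000118), and *egl-21*, the carboxypeptidase of the next step, fell by 0.31 (adjusted p = 0.0012, and 0.0463 with all 36 libraries in one fit). Of 30 *flp* genes, which encode FMRFamide-like peptides, 10 fell, with a median of -0.30, and 2 did with all 36 libraries in one fit and 21 with total counts alone. *flp-25* fell by 1.01 and *flp-21* by 0.92. Of 67 *nlp* genes 18 fell and 5 rose, and only 10 fell without 20 °C replicate 1 and 11 without 20 °C replicate 4 or 25 °C replicate 6. The *nlp* rises and falls were 0 (1 at an unadjusted p below 0.05) and 4 with all 36 libraries in one fit and 8 and 14 without 25 °C replicates 1 and 3. *nlp-51* went from 12.1 to 15.9 CPM to 4.57 to 6.42 CPM. Genes named *osm*, for osmotic avoidance, and *dyf*, for dye filling, many of which build the cilia of sensory neurons, fell in 5 of 10 and 5 of 12, with medians of -0.50 and -0.61. *osm-5*, a core protein of transport in cilia whose mutant is also part of the series, was at 2.82, 3.14 and 3.32 CPM in the 20 °C libraries and 0.739, 0.988 and 1.49 CPM in the 25 °C libraries (log2 fold change -1.58, adjusted p = 2.56e-06) in these wild-type libraries. *osm-12* fell by 1.41, *dyf-3* by 1.01 and *dyf-1* by 0.88. Without 20 °C replicate 1, 2, 3, 5 or 6 or 25 °C replicate 3, each left out alone, 3 *dyf* genes fell, as without 25 °C replicates 1 and 3 together.

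Families were also counted by gene name, 142 of them with at least 10 genes tested, and those of protein synthesis stood out by their uniformity. All 31 *rps* genes and 46 of 47 *rpl* genes, the cytosolic ribosomal proteins, rose, with medians of 0.44 and 0.43. Their single changes lay between 0.36 and 0.53 for *rps* genes. *rps-11* was at 1110.1, 1143 and 1231 CPM in the 20 °C libraries and 1464, 1671 and 1800.4 CPM in the 25 °C libraries (log2 fold change 0.53, adjusted p = 9.62e-06). The summed *rpl* level was 42428 to 46942 CPM at 20 °C and 54588 to 62589 CPM at 25 °C. Mitochondrial ribosomal proteins rose in 25 of 29 *mrps* and 28 of 40 *mrpl* genes, and 17 of 25 *eif* translation initiation genes rose, *eif-3.J* by 0.63 and *eif-6* by 0.51. The vacuolar ATPase subunits rose in 18 of 20 *vha* genes (*vha-3* by 0.47), and aspartyl proteases in 9 of 11 (*asp-14* by 1.36). With total counts alone the rises were 21 of 31, 26 of 47, 9 of 29, 7 of 40, 7 of 25, 5 of 20 and 7 of 11, in the same order. With all 36 libraries in one fit they were 19, 28, 14, 14, 11, 9 and 6.

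Other families rose in part. Of 62 *ugt* glucuronosyltransferases 22 rose and 10 fell. *ugt-26* was at 22.6, 26.2 and 29.2 CPM in the 20 °C libraries and 98.3, 119 and 126 CPM in the 25 °C libraries (log2 fold change 2.15, adjusted p = 1.1e-09) and *ugt-53* rose by 2.02. Families of short peptides rose unequally, in 10 of 11 *nspb*, 9 of 14 *fipr*, 6 of 12 *nspg* and 4 of 17 *nspc* genes, with medians of 0.84, 0.66, 0.22 and 0.23, and 2 *nspg* genes and 1 *nspc* gene fell. The rises of *nspb*, *nspg* and *nspc* numbered 9, 1 and 3 with total counts alone and 6, 3 and 0 (1 at an unadjusted p below 0.05) with all 36 libraries in one edgeR fit. *fipr-11* was at 2.73, 3.25 and 3.61 CPM in the 20 °C libraries and 5.99, 6.75 and 7.94 CPM in the 25 °C libraries (log2 fold change 1.09, adjusted p = 2.73e-06), though with all 36 libraries in one edgeR fit 0 *fipr* genes were called (2 at an unadjusted p below 0.05, adjusted p = 0.245 for *fipr-11*). Among 56 *ttr* genes, transthyretin-like, 20 rose and 4 fell, but 2 rose with all 36 libraries in one fit and 10 with total counts alone.

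Families of detoxification, transcriptional control and protein turnover held many falls. Of 65 *cyp* genes, the cytochromes P450, 26 fell and 6 rose, with a median of -0.43. *cyp-13A5* was at 7.84, 14.3 and 36.7 CPM in the 20 °C libraries and 1.35, 1.82 and 3.11 CPM in the 25 °C libraries (log2 fold change -3.12, adjusted p = 2.27e-05), with 20 °C replicate 5 the highest. *cyp-33C2* had a larger log2 fold change of -4.39 (adjusted p = 0.00656) that rested on 20 °C replicate 2 at 38.8 CPM beside a group median of 1.13, and it was -2.51 (adjusted p = 0.0101) without that library. Its adjusted p also rose above the threshold without 20 °C replicate 6 or any one 25 °C library, up to 0.0173 without 25 °C replicate 2, and was 0.0295 with the oocyte list level as a covariate. Without 25 °C replicate 2 only 16 *cyp* genes fell, and 17 without 20 °C replicate 3, 4 or 6 or 25 °C replicate 5, while 3 rose without 20 °C replicate 2. The *cyp* rises and falls were 3 and 32 with total counts alone and 11 and 27 without 25 °C replicates 1 and 3. Of 194 nuclear hormone receptors 52 fell and 7 rose, with a median of -0.29, and the rises were 3 or 4 without 20 °C replicate 2, 3 or 6. They were 3 and 85 with total counts alone and 3 and 39 with all 36 libraries in one fit, in the order of rises and falls. *nhr-245* fell by 1.85. Genes with MATH domains fell in 12 of 33 *bath* and 7 of 26 *math* genes, and the *bath* falls were 6 with all 36 libraries in one fit and 20 without 25 °C replicates 1 and 3. *bath-13* was at 3.26, 4.24 and 4.68 CPM in the 20 °C libraries and 0.357, 0.450 and 0.577 CPM in the 25 °C libraries (log2 fold change -3.18, adjusted p = 5.57e-09), and *math-38* at 8.44, 9.94 and 11.5 CPM in the 20 °C libraries and 0.379, 0.901 and 1.38 CPM in the 25 °C libraries (log2 fold change -3.46, adjusted p = 2e-07). Of 117 *fbxa* F-box genes 23 fell and 9 rose, while the falls were 15 without 20 °C replicate 1, 4 or 6, and the rises were 5 without 20 °C replicate 1 and 15 without 25 °C replicate 1. The *fbxa* rises were 4 with total counts alone and 19 without 25 °C replicates 1 and 3. Of 131 *clec* genes 26 fell and 18 rose, and the rises were 34 without 25 °C replicates 1 and 3.

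**Figure D5:**
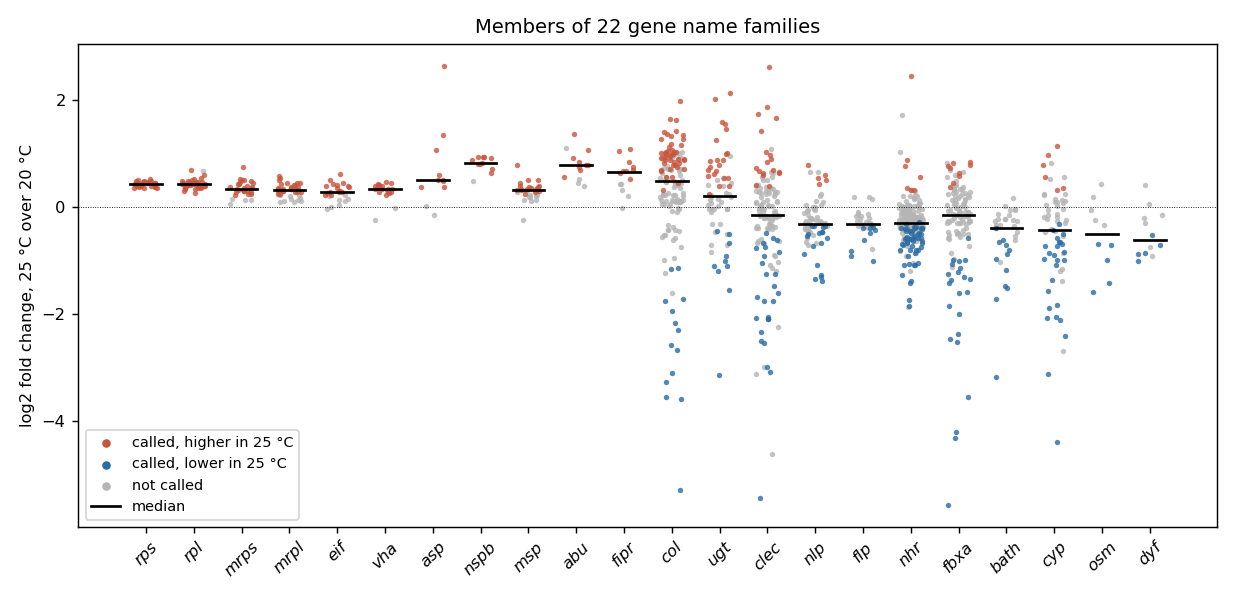
Log2 fold change of 25 °C over 20 °C (vertical axis) for each gene tested in 22 gene name families, with called rises in red, called falls in blue, other genes in grey and a bar at each median. The *rps* and *rpl* genes lie in a narrow band above 0, and the *nhr*, *cyp*, *osm* and *dyf* medians lie below 0. Some *col*, *clec* and *fbxa* genes reach furthest below 0. The lowest *clec* and *fbxa* genes, *clec-15* and *fbxa-172*, passed the filter through the 20 °C libraries alone. In 1 *col* gene and 2 *fbxa* genes no library of 1 group had more than 3 counts.

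The 8 lists of stress pathway genes that the study used were counted in the same way. Of 1093 DAF-16 genes 155 rose and 219 fell, which is 14.2% and 20.0%. Of 264 innate immunity genes 23 rose and 63 fell (8.71% and 23.9%). Of 945 SKN-1 genes 210 rose and 70 fell (22.2% and 7.41%). Of 325 genes of the mitochondrial unfolded protein response 49 rose and 82 fell (15.1% and 25.2%). HIF-1 genes fell in 11 of 44, and 6 or 7 fell without 20 °C replicate 1, 3, 4 or 6 or 25 °C replicate 2, 4, 5 or 6, each left out alone. Cytosolic unfolded protein response genes rose in 258 and fell in 291 of 1533, with 398 rises without 25 °C replicate 1 and 166 and 168 without 20 °C replicates 2 and 3. Genes of the endoplasmic reticulum response rose in 26 and fell in 12 of 144, with 41 rises without 25 °C replicate 1. The balance of most of these lists depends on the scaling. With total counts alone the rises and falls were 105 and 129 for SKN-1 and 10 and 23 for the endoplasmic reticulum, so that the falls outnumbered the rises in both, 72 and 330 for DAF-16, and 82 and 381 for the cytosolic response. For the mitochondrial response they were 28 and 143, for innate immunity 16 and 91, and for HIF-1 2 and 20. Without 25 °C replicates 1 and 3 the cytosolic response had 507 rises and 286 falls, SKN-1 385 and 168 and DAF-16 237 and 246. With all 36 libraries in one fit SKN-1 had 123 and 43, DAF-16 81 and 147, and the cytosolic response 94 and 187. The medians of the 8 lists, antioxidant genes included, lay between -0.21 and 0.16, beside -0.02 over all genes tested.

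For some of the named genes the 20 °C wild type stood apart from every other group of the series. The genes had been named for their difference between the wild-type groups, and for these values all 36 libraries were scaled together. *C38D9.2* was between 171 and 218 CPM in the 20 °C wild type and at most 6.93 CPM in the other 30 libraries. In the libraries labelled *osm-5*, *eat-2* and *ife-2* it was at 1.02 to 1.39, 0.477 to 1.20 and 0.394 to 1.49 CPM. Of the 12 largest falls, 7 had every 20 °C wild-type library above all 30 others, and of the 12 largest rises, 4 had every one below. No overlap with the 25 °C wild type was a condition for naming these genes. Some of the 12 falls had passed the filter through the 20 °C libraries alone. The share over all genes tested was not computed, so these counts do not set the 20 °C wild type apart in general. *gpdh-1* was one of these, with 1.97 to 3.61 CPM in the 20 °C wild type and at least 5.75 CPM elsewhere. *acdh-2* was at 24.2 to 41.6 CPM in the libraries labelled *eat-2*, 13.0 to 21.2 in *ife-2*, 12.5 to 38.8 in *osm-5* and 2.78 to 26.9 in *glp-1*, the last labelled 25 °C and partly as low as the 20 °C wild type. *adh-1* was between 245 and 375 CPM in the 20 °C wild type and at most 149.7 CPM in the rest. The temperature label and any other difference between the wild-type groups cannot be told apart.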

How the data were processed

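The series holds 36 libraries of polyadenylated whole-worm RNA, run on 3 flowcells that held all groups, and 12 are used here. The deposited table holds raw counts per gene. By the methods of the study linked to the series, whose data statement names other series, the authors trimmed reads with cutadapt where needed, checked alignments from STAR, estimated transcript abundance with Salmon on WBcel235 (Ensembl release 90) and summed it to genes with tximport. The labels name cutadapt, STAR and Salmon without versions. Whether the whole numbers are rounded estimates, and whether strand was used, is not given in the sources used here, so genes with overlapping exons (29.6% of those tested) and close copies are uncertain. Depth was similar in all libraries. Between pairs of libraries of the same group the chi-square of the counts was 19.8 to 192 per gene, far above what counting error alone gives. This is a mean over genes and does not describe the lowest genes.

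Groups were taken from the temperature in the labels. Genes with at least 10 counts in 6 of 12 libraries were tested with edgeR 4.0.16 (R 4.3.3; TMM normalization, quasi-likelihood test, Benjamini-Hochberg adjustment over all 16506 genes, threshold 0.01, no fold threshold). Every adjusted p in the text is from that test unless another tool is named. "Called" means past that threshold. CPM are counts scaled by library size and TMM, and list levels are mean log2 CPM with a prior count of 2. Names and coordinates are from Ensembl release 115 (WBcel235), in which 45842 of 46093 identifiers were found, with names shared by several genes taken from RefSeq. Named genes were *acdh-2*, the 12 largest rises and 12 largest falls among protein-coding genes with a mean of at least 10 counts and no overlap between groups, the 5 largest of each at a mean of at least 100 CPM, up to 3 genes per list and direction, all *vit* genes and adult cuticle collagens, and 2 genes per family. Genes named outside this rule are marked in the text. The members, the 26 gene lists and the tests were chosen with earlier results of these data known. The 8 pathway lists are those of the study. Families share the letters of the gene name.

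Alternatives were DESeq2 1.42.0, other scalings, other filters and thresholds, a fit of all 36 libraries, a block by replicate number, ribosomal RNA left out, each library left out in turn and a prior count of 0.5. The oocyte list level as a covariate and leaving out 25 °C replicates 1 and 3 were chosen after seeing the data. The fits were tested on simulated data. Single values of libraries were compared by exact permutation tests (scipy 1.17.1).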

Additional observations from a re-analysis of the deposited data

Results flagged for a closer look

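Among the genes named in the text, 29 of 278 groups of 6 libraries held 1 library whose gap to the nearest of the others, as a share of the group's range, was past the 95% limit of Dixon's test. For independent, normally distributed values chance gives about 1 in 20 such groups. These are CPM of selected genes, and 1 library held 13 of the 29, so the count was not tested against chance. Of these, 16 were in the 20 °C and 13 in the 25 °C group, and the library was the highest of its group in 23. As the highest of its group, 20 °C replicate 5 lay apart for *clec-47* (24.3 CPM), *lipl-3* (16.9 CPM), *col-7* (156 CPM), *mup-2* (569 CPM), *egl-3* (157 CPM), *egl-21* (114 CPM), *flp-21* (5.79 CPM), *nlp-51* (15.9 CPM), *cyp-13A5* (36.7 CPM) and *nhr-245* (4.07 CPM). For *grl-27* (0.726 CPM), *hsp-16.2* (3.56 CPM) and *eif-3.J* (64.3 CPM), 20 °C replicate 5 lay apart as the lowest of its group. 20 °C replicate 2 was the highest of its group, apart from the rest, for *asp-12* (10.2 CPM) and *cyp-33C2* (38.8 CPM). As the highest of its group, 20 °C replicate 4 lay apart for *cpr-1* (989.5 CPM). For *irg-5* (2.69 CPM), 25 °C replicate 1 lay apart as the lowest of its group. 25 °C replicate 2 was the highest of its group, apart from the rest, for *col-40* (1.28 CPM) and *elo-5* (289.5 CPM). As the lowest of its group, 25 °C replicate 2 lay apart for *hsp-6* (578 CPM). For *clec-15* (0.230 CPM), *adh-1* (31.6 CPM), *tts-1* (17.9 CPM) and *clec-47* (121 CPM), 25 °C replicate 3 lay apart as the highest of its group. 25 °C replicate 3 was the lowest of its group, apart from the rest, for *W09B7.2* (1.04 CPM). As the highest of its group, 25 °C replicate 5 lay apart for *C07G1.7* (0.334 CPM) and *osm-5* (1.49 CPM). For *C38D9.13* (0.102 CPM) and *hsp-16.11* (1.07 CPM), 25 °C replicate 6 lay apart as the highest of its group. 20 °C replicate 5 held 13 of these values, and leaving it out gave 2202 rises and 1626 falls in place of 2139 and 1808.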

How the results depend on the processing

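Against 2139 rises and 1808 falls, a threshold of 0.05 gave 3252 and 3117, and a 2-fold minimum gave 249 and 586. All 36 libraries in one fit gave 1073 and 1118, of which 1018 and 1065 were shared with the fit of 12. Total counts alone gave 868 and 3646, with 868 and 1808 shared. The replicate number as a block gave 1412 and 1264. Without 25 °C replicates 1 and 3 there were 3772 and 3388, and with the oocyte list level as a covariate 2814 and 2769. Leaving out 1 library gave 1647 to 2792 rises and 1268 to 2237 falls. The causes of these moves were not tested. DESeq2 (2817 and 2206), its size factors in edgeR (2278 and 1678), upper-quartile scaling (2038 and 1913), no filter beyond 1 count (2193 and 1525), a minimum of 50 counts (2014 and 1587) and ribosomal RNA left out (2142 and 1812) stayed within 1.5 times. Of 118 called genes in the text, 95 were called under each of the 23 alternatives that could test them, 19 lost their call with all 36 libraries in one fit, 6 with the block (*D1014.7*, *cyp-33C2*, *hsp-12.1*, *nhr-57*, *peel-1* and *unc-45*) and 5 with total counts alone, and none changed sign. Of 16 genes in the text that were not called, 12 were called under some alternative, 8 of them without 25 °C replicates 1 and 3. No list level moved by more than 1 SD with a prior count of 0.5. Same-numbered libraries of the 2 groups had correlations of their deviations from -0.53 to 0.39, and 1 of 6 correlated best with its own number, so the numbers were not taken to pair the libraries. Genes near the floor of 3 counts are limited by depth, and 9 called genes of the text fell under the filter when a 20 °C library was left out.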
